A study of Mus musculus with 8 samples.

Results

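Iron handling was examined through 9 genes named for their roles in iron uptake (Tfrc, Steap3, Slc11a2, Slc25a37), storage and release (Fth1, Ftl1, Ncoa4) and sensing (Aco1, Ireb2). The rule names the genes and uses no measured value, but it was set with earlier results of these data known. All 9 are among the 13305 genes of the deposited count table, and none was removed by a filter on low counts. Whole BM of C57BL/6N mice was sequenced as 1 library per mouse. All 8 mice carried Mx1-Cre, a heterozygous Dnmt3a deletion (Dnmt3a+/-) and Flt3-ITD on both alleles (Flt3ITD/ITD), a combination that gives rise to AML. They differed in the docking protein gene Gab2: 3 AML WT mice were Gab2+/+, 2 AML HET mice were Gab2+/- and 3 AML KO mice were Gab2-/-. In the study, Mx1-Cre, an interferon-inducible transgene, was active without an inducing injection. The Gab2 knockout is present in every cell of the animal, and the labels give no age. Healthy BM was not analysed here, so each difference below is one between Gab2 genotypes on this background. The paper reports anemia and many neoplastic blood cells in AML WT mice. It reports few blasts in the blood of AML HET mice and hardly any in AML KO mice. Gab2 genotype and extent of disease cannot be told apart here.

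Iron bound to transferrin enters cells through the transferrin receptor Tfrc. In the endosome it is reduced by Steap3 and moved to the cytosol by the divalent metal transporter Slc11a2, and Slc25a37 (mitoferrin 1) carries it into mitochondria, where it is built into heme and iron-sulfur clusters. Iron that is not used is stored in shells of ferritin heavy (Fth1) and light (Ftl1) chains, which Ncoa4 delivers to lysosomes when iron is needed. The sensors Aco1 (IRP1) and Ireb2 (IRP2) bind iron-responsive elements (IREs), short hairpins in mRNAs, when iron is scarce: binding in a 3′ UTR protects the mRNA from decay, and binding in a 5′ UTR blocks translation. In BM, erythroid precursors take up most of the iron, and macrophages recycle it from old red cells.

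The IREs are shown because they set apart the genes whose mRNA level can follow the sensors (Tfrc) from those regulated at translation (the ferritins), where the RNA level does not show how much protein is made. They were searched in the UTRs of principal GENCODE M21 transcripts (GRCm38, sense strand, DNA letters) as the letters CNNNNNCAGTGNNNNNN with 5 paired stem bases around a loop of 6. Capitals mark the bulged C and the loop. Tfrc held 4 such elements in its 3′ UTR:
Tfrc element at chr16:32631218-32631247 (+): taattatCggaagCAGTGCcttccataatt
Tfrc element at chr16:32631597-32631626 (+): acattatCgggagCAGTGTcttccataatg
Tfrc element at chr16:32631662-32631691 (+): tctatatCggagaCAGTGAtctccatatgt
Tfrc element at chr16:32631709-32631738 (+): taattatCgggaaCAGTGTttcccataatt
Both ferritin genes held 1 in the 5′ UTR, as did the iron exporter Slc40a1 (ferroportin) and Alas2, the first enzyme of heme synthesis in erythroid cells, whose element spans an exon junction:
Fth1 element at chr19:9982731-9982760 (+): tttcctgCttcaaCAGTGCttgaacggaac
Ftl1 element at chr7:45459779-45459808 (-): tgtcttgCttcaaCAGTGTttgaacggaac
Slc40a1 element at chr1:45925465-45925494 (-): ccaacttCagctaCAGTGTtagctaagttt
Alas2 element: tttggttCgtcctCAGTGCagggcaacagg
Such a match was found in 18 of 11778 5′ UTRs (0.153%) and in 78 of 12015 3′ UTRs (0.649%). No match was found in the principal transcript of Slc11a2, which says only that these letters are not in that transcript.

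The libraries held 28009258 to 39266815 counts, and the members had 498 to 45083 counts in a mouse. Levels are given as CPM (counts scaled to library size) after TMM normalization. Gab2 was lower in every AML KO mouse (35.0 to 47.2 CPM) than in every AML WT mouse (61.6 to 93.9 CPM), with a log2 fold change of −0.87 (SE 0.18, adjusted p = 0.0420), and this call was lost in 6 of the 8 fits that left out 1 mouse (adjusted p up to 0.159; it held only without AML WT mouse 3 or AML KO mouse 2). In the paper, the knockout allele carries a neomycin cassette in place of some of the Gab2 exons, so other exons remain. Counts per gene do not tell which exons the reads of AML KO mice came from. Markers of several cell types differed between the groups: 22 of 25 erythroid markers and 9 of 15 mature neutrophil markers were called higher in AML KO than in AML WT and none lower. Of all genes, 1.77% were called higher and 2.09% were called in either direction. Of 10 genes listed as progenitor and blast markers, 2 (Cd34 and Cebpe) were called higher and 8 were not called. Cebpe rose from 13.9 to 47.3 CPM (group means), as the mature neutrophil markers rose. Kit (log2 fold change 0.08) and Flt3 (−0.11) were among the 8, and 9 of the 10 had a positive value. These calls do not measure the number of blasts. No monocyte marker of 10 was called. Of 15 measured markers of iron-recycling macrophages, 3 (Vcam1, Cd5l, Slc40a1) were called higher and 2 (Mrc1, Axl) lower. In bulk BM, fewer cells of a type and less RNA per cell cannot be told apart.

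Ferritin mRNA was by far the most abundant of the 9. Per kilobase of the longest principal transcript, AML WT BM held 1292 ± 142 CPM of Ftl1 (SD, n = 3) and 426 ± 35.9 of Fth1. Ncoa4 (19.6 ± 7.73), Tfrc (19.4 ± 3.73), Ireb2 (15.9 ± 3.10), Aco1 (15.4 ± 2.16) and Slc25a37 (15.0 ± 3.06) followed, and each differed from the next in this order by less than the SD of the higher of the pair. Steap3 (7.29 ± 0.48) and Slc11a2 (5.99 ± 0.82) were lowest. In AML KO BM the order of the middle group changed, with Slc25a37 (32.1 ± 14.6) and Tfrc (26.7 ± 11.9) above Ncoa4 (15.2 ± 5.14), although the spread of Slc25a37 and Tfrc was wide. These values depend on the transcript chosen. That of Fth1 has 1494 bases with a 5′ UTR of 795, and a shorter form would give Fth1 a higher value per kilobase. Without division by length, the AML WT means were 1250 CPM for Ftl1 and 637 CPM for Fth1.

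The comparison of AML KO with AML WT asks how BM of this background differs with loss of Gab2. In it, none of the 9 genes was called at an adjusted p under 0.05, against 2.09% of all 13305 genes (278 genes). At an unadjusted p under 0.05, there were 1 member (Slc25a37) and 2349 genes in all. The median log2 fold change was −0.0023 for the members and −0.0167 for all genes, and 4 members had a positive and 5 a negative value. For no member were the 2 groups free of overlap, which was the case for 22.1% of all genes. Between AML HET and AML WT, no member was called (0.0225% of all genes, 3 genes), with 1 member (Slc25a37) and 329 genes at an unadjusted p under 0.05, and the groups did not overlap for 2 of 9 members, Tfrc and Slc25a37, both higher in AML HET (18.1% of all genes). Between AML KO and AML HET, no member and no gene at all was called by edgeR (0%), while 0 members and 780 genes had an unadjusted p under 0.05 and DESeq2 called 0 members and 77 genes. No member's groups were free of overlap there (24.2% of all genes).

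**Figure D1:**
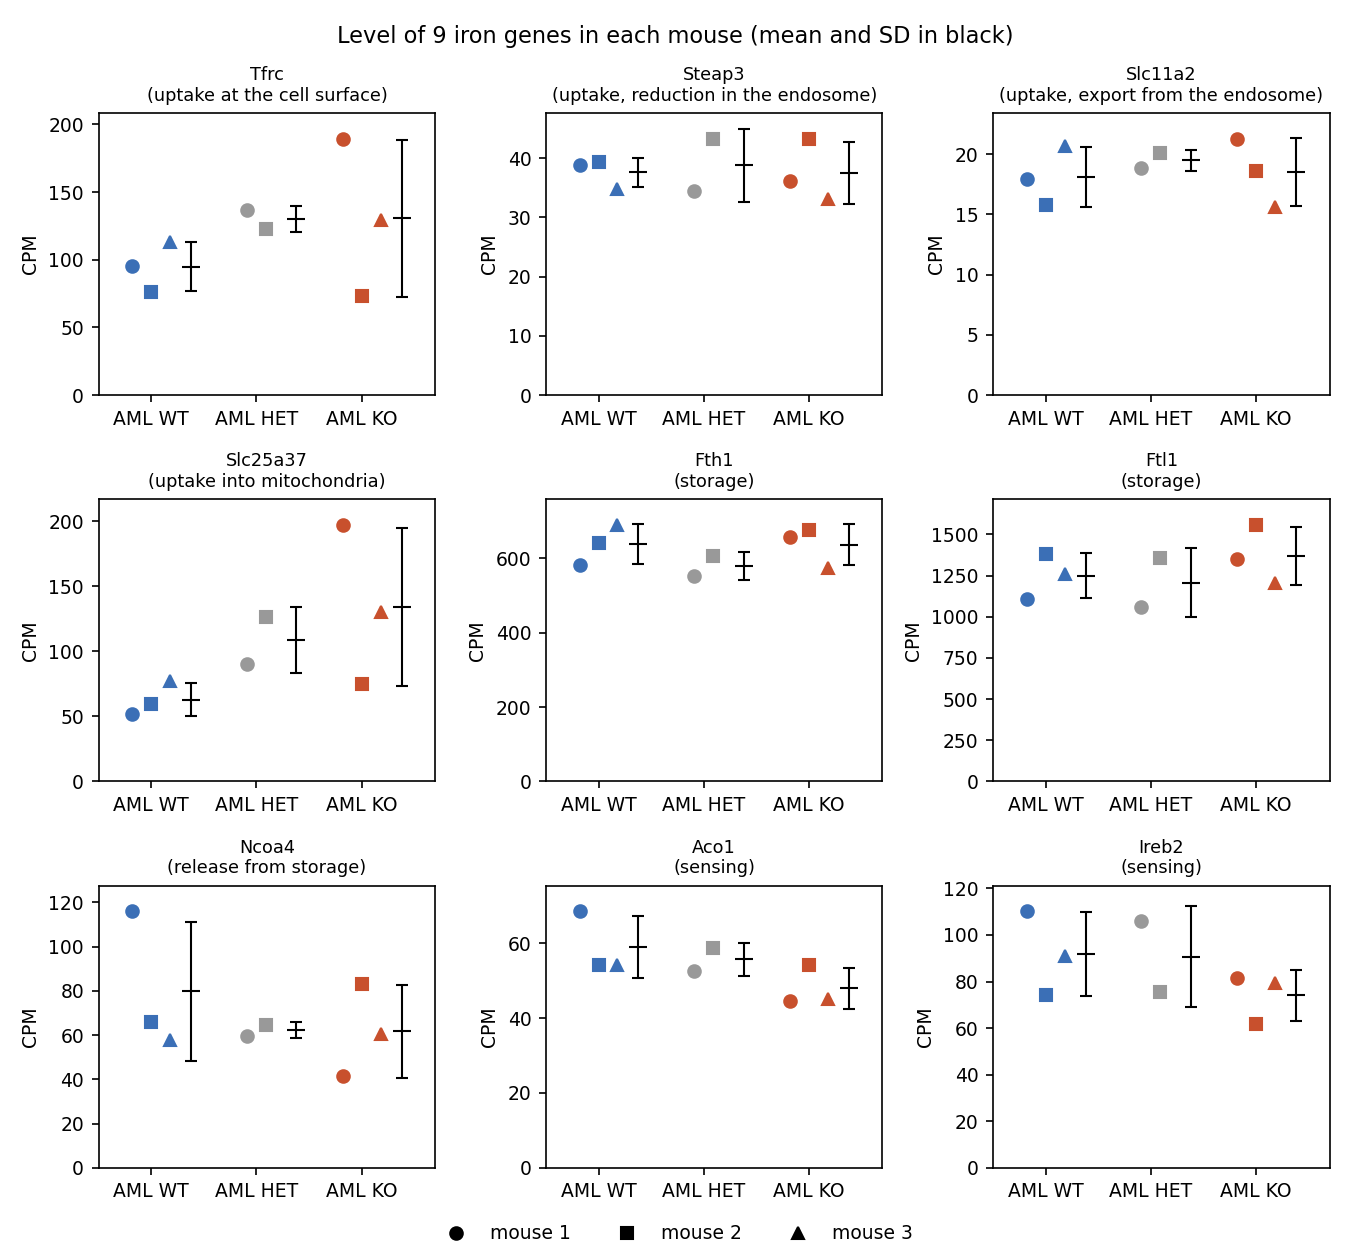
Level of each of the 9 genes (CPM, linear axis from 0) by genotype (3 AML WT, 2 AML HET, 3 AML KO); symbols are single mice and black bars the mean ± SD. Slc25a37 runs from 52.0 CPM in an AML WT mouse to 196.9 CPM in an AML KO mouse. For Slc25a37 and Tfrc both AML HET mice lie above all AML WT mice, but the AML KO mice overlap both other groups. For every other gene shown all groups overlap.

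Slc25a37 (ENSMUSG00000034248), the mitochondrial iron importer of erythroid cells, lies on chromosome 14 from 69241848 to 69285112 on the minus strand. It had the largest fold change of the 9 in AML KO against AML WT. Its level was 52.0, 59.3 and 76.8 CPM in the AML WT mice, 90.6 and 126.6 CPM in the AML HET mice and 196.9, 75.1 and 129.9 CPM in the AML KO mice. Every AML HET mouse and AML KO mice 1 and 3 were above all AML WT mice, but AML KO mouse 2 fell below AML WT mouse 3. The log2 fold change was 1.10 (SE 0.31) with an unadjusted p = 0.0059 and an adjusted p = 0.134 (edgeR quasi-likelihood test, Benjamini-Hochberg). AML HET against AML WT gave 0.79 (SE 0.34, unadjusted p = 0.043, adjusted p = 0.990) and AML KO against AML HET gave 0.30. The call rests on the tool and on single mice: DESeq2 called the gene (1.09, adjusted p = 0.0122), edgeR called it without AML KO mouse 2 (1.38, adjusted p = 0.0238), and without AML KO mouse 1 the log2 fold change was 0.71 (adjusted p = 0.391). Antisense genes overlap the Slc25a37 locus in the annotation, and whether the counting used strand is not given in the sources used here, so their reads cannot be told apart.

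Tfrc (ENSMUSG00000022797; chromosome 16, 32608920 to 32632794, plus strand) moved between mice in a similar order. Its level was 95.5, 76.4 and 112.9 CPM in AML WT, 136.6 and 123.1 CPM in AML HET and 189.5, 73.2 and 129.2 CPM in AML KO mice. AML KO mouse 1 was the highest and AML KO mouse 2 the lowest of all 8 mice, so the AML KO range enclosed the other groups. Both AML HET mice were above all AML WT mice. The log2 fold change was 0.46 (SE 0.29, adjusted p = 0.399) in AML KO against AML WT, 0.45 in AML HET against AML WT and 0.01 in AML KO against AML HET. Without AML KO mouse 1 the first of these was 0.09, and without AML KO mouse 2 it was 0.74 (adjusted p = 0.0972). The 4 elements printed above sit in the part of this mRNA that the sensors protect, but sensor binding was not measured.

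The endosomal genes spanned a narrow range. Steap3, the ferrireductase (ENSMUSG00000026389; chromosome 1, 120190757 to 120272705, minus strand), ran from 33.1 to 43.3 CPM over all 8 mice. Its values were 38.7, 39.3 and 34.8 CPM in AML WT, 34.4 and 43.1 CPM in AML HET and 36.1, 43.3 and 33.1 CPM in AML KO mice. The groups overlapped, and the log2 fold change in AML KO against AML WT was −0.005 (adjusted p = 0.987). Slc11a2 (ENSMUSG00000023030; chromosome 15, 100387898 to 100425072, minus strand) was at 17.9, 15.7 and 20.7 CPM in AML WT, 18.9 and 20.1 CPM in AML HET and 21.3, 18.6 and 15.6 CPM in AML KO mice. The highest and the lowest value were both from AML KO mice, and the log2 fold change was 0.03 (adjusted p = 0.931). The gene Gm5475 overlaps Slc11a2 on the opposite strand.

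The ferritins also spanned a narrow range across genotypes. Fth1, the heavy chain that oxidizes iron as it enters the shell (ENSMUSG00000024661; chromosome 19, 9980598 to 9985098, plus strand), was at 581.8, 639.6 and 688.9 CPM in AML WT, 551.2 and 604.9 CPM in AML HET and 658.1, 675.8 and 573.5 CPM in AML KO mice. The highest of the 8 values was 1.25 times the lowest, the smallest such ratio among the members, and the log2 fold change was −0.002 (adjusted p = 0.993). Ftl1, the light chain (ENSMUSG00000050708; chromosome 7, 45457944 to 45459884, minus strand), was at 1108.4, 1383.3 and 1258.9 CPM in AML WT, 1058.1 and 1357.6 CPM in AML HET and 1348.6, 1557.2 and 1202.9 CPM in AML KO mice. AML KO mouse 2 was highest and AML HET mouse 1 lowest, the groups overlapped, and the log2 fold change was 0.13 (adjusted p = 0.655). Both ferritin genes have processed pseudogenes of near-identical sequence, so how reads were shared among copies makes their absolute levels uncertain.

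Ncoa4, the receptor that takes ferritin to lysosomes (ENSMUSG00000056234; chromosome 14, 32159865 to 32179855, plus strand), varied more than the ferritins. Its level was 115.9, 65.8 and 57.9 CPM in AML WT, 59.7 and 64.7 CPM in AML HET and 41.5, 83.2 and 60.3 CPM in AML KO mice. AML WT mouse 1 stood above the other 7 mice and AML KO mouse 1 was lowest. The log2 fold change in AML KO against AML WT was −0.37 (SE 0.29, adjusted p = 0.491), and it was −0.01 without AML WT mouse 1.

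Both sensor genes had their highest value in AML WT mouse 1 too. Aco1, a cytosolic aconitase that turns into an RNA-binding protein when it loses its iron-sulfur cluster (ENSMUSG00000028405; chromosome 4, 40143081 to 40198338, plus strand), was at 68.5, 54.2 and 54.1 CPM in AML WT, 52.5 and 58.8 CPM in AML HET and 44.4, 54.3 and 45.2 CPM in AML KO mice. AML KO mice 1 and 3 were the lowest of the 8, and AML KO mouse 2 lay among the AML WT mice. The log2 fold change was −0.30 (SE 0.14, unadjusted p = 0.066, adjusted p = 0.307). Ireb2, which is degraded when iron is plentiful (ENSMUSG00000032293; chromosome 9, 54863789 to 54912530, plus strand), was at 110.1, 74.4 and 91.1 CPM in AML WT, 106.0 and 75.5 CPM in AML HET and 81.4, 61.6 and 79.4 CPM in AML KO mice. The groups overlapped through AML WT mouse 2, and the log2 fold change was −0.31 (SE 0.19, adjusted p = 0.386). Without AML WT mouse 1 these log2 fold changes were −0.18 for Aco1 and −0.17 for Ireb2. The protein activity of both sensors is set after translation and was not measured.

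**Figure D2:**
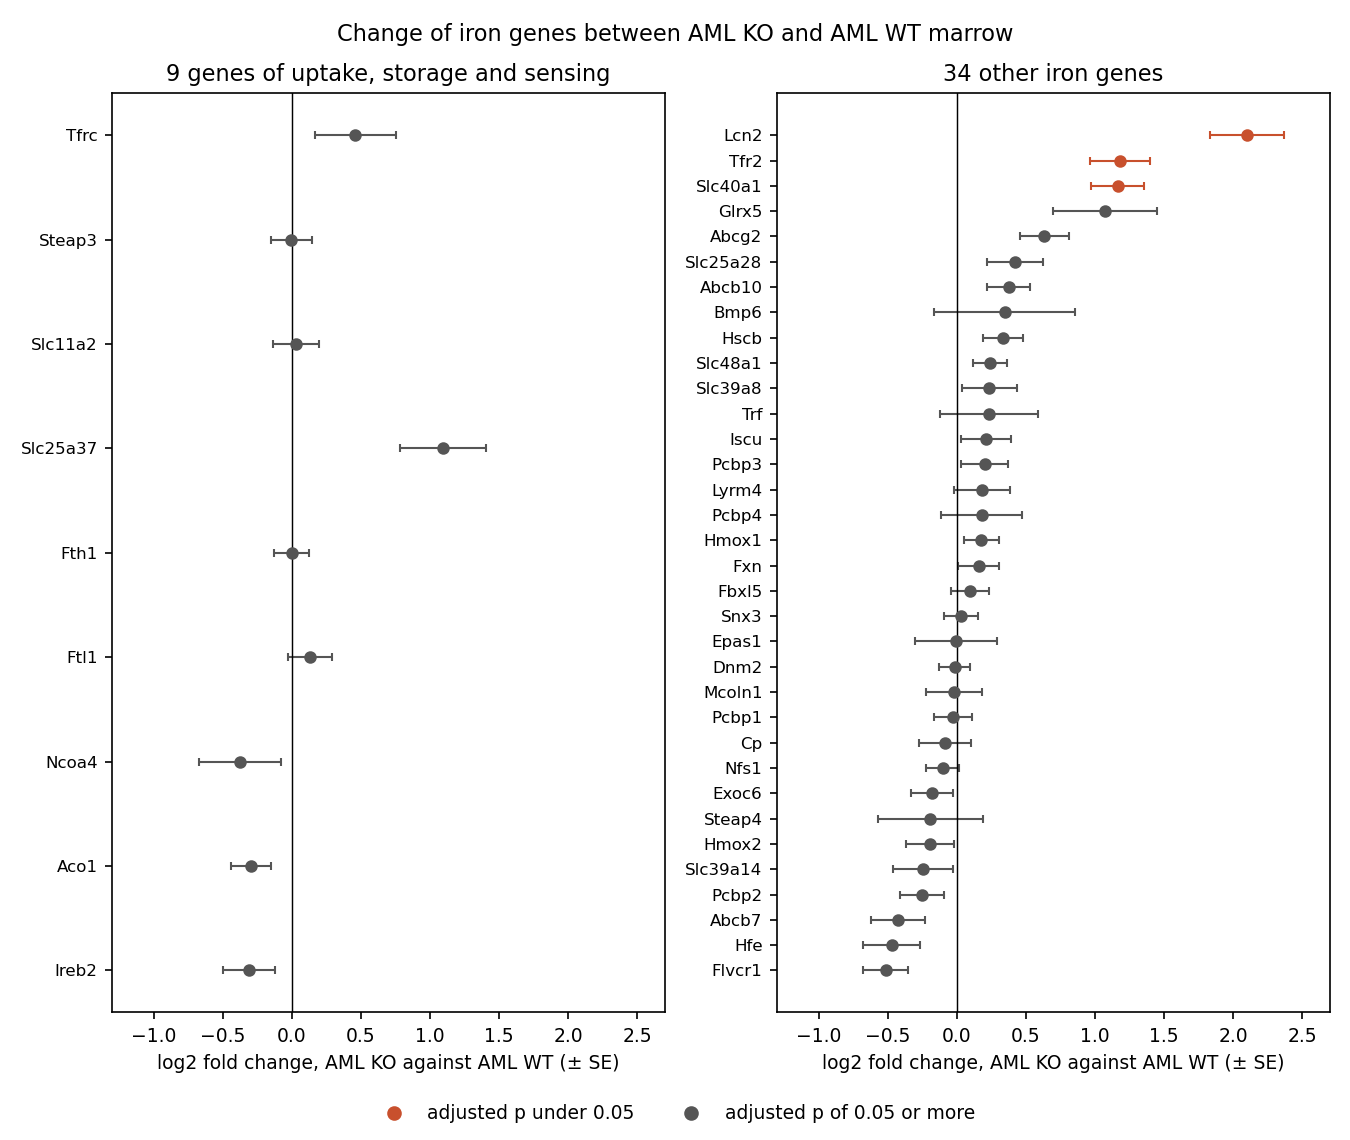
Log2 fold change in AML KO against AML WT BM (x axis; points with bars of ± 1 SE from edgeR) for the 9 genes on the left and 34 other iron genes on the right, in orange where the adjusted p was under 0.05. None of the 9 is orange, and Lcn2, Tfr2 and Slc40a1 are the 3 others that are.

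Among 34 measured genes of a wider list of 45 iron genes, 3 were called higher in AML KO than in AML WT, none was called lower and 31 were not called (1.77% of all genes were called higher). The groups did not overlap for 9 of the 34, with 8 higher and 1 (Flvcr1) lower in AML KO, near the 22.1% of all genes without overlap. Lcn2 (lipocalin 2), a neutrophil granule protein that binds iron-loaded siderophores, was at 91.6, 141.1 and 199.6 CPM in AML WT, 201.1 and 270.9 CPM in AML HET and 654.4, 690.9 and 511.0 CPM in AML KO mice. Its log2 fold change was 2.10 (SE 0.27, adjusted p = 0.0071). Slc40a1, the only known cellular iron exporter and abundant in recycling macrophages, was at 10.3, 8.6 and 13.3 CPM in AML WT, 17.1 and 14.7 CPM in AML HET and 23.4, 27.8 and 21.2 CPM in AML KO mice, with a log2 fold change of 1.17 (SE 0.19, adjusted p = 0.0163). For both genes the values stepped up from AML WT to AML HET to AML KO with no overlap between groups. Tfr2, another transferrin receptor found in liver and erythroid cells, was at 6.9, 8.1 and 6.6 CPM in AML WT, 9.5 and 10.6 CPM in AML HET and 21.6, 13.4 and 13.9 CPM in AML KO mice, again without overlap. Its log2 fold change was 1.18 (SE 0.22, adjusted p = 0.0244).

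These 3 calls differed in how they held when 1 mouse was left out. The call of Lcn2 was lost in 1 of 8 such fits (without AML WT mouse 2, adjusted p = 0.0579), that of Slc40a1 in 2 (without AML WT mouse 1 or 2, adjusted p up to 0.0845) and that of Tfr2 in 7 (all but the fit without AML KO mouse 2, adjusted p up to 0.0860), while their log2 fold changes stayed at 0.93 or more. Mature neutrophil markers, of which Lcn2 is a listed member, summed to 1801 to 5328 CPM in AML WT, 6079 to 6808 CPM in AML HET and 11565 to 18411 CPM in AML KO mice. Iron-recycling macrophage markers, which include Slc40a1, summed to 430 to 528 CPM in AML WT, 362 to 413 CPM in AML HET and 276 to 421 CPM in AML KO mice. Within this list the genes moved in opposite directions: the abundant Mrc1 went from 171 CPM in AML WT to 93.9 CPM in AML KO (group means) and Axl from 74.9 to 25.7 CPM, while Vcam1 went from 11.9 to 24.1 CPM and Cd5l from 0.37 to 1.84 CPM, each called, and Spic was at 1.49 and 3.00 CPM (adjusted p = 0.158). Among the 15 measured markers of this list, the groups did not overlap for 8 (22.1% of all genes). Of these, 4 were higher in AML KO (Vcam1, Cd5l, Spic, Slc40a1) and 4 lower (Mrc1, Axl, Cd163, Siglec1). Cd163 went from 17.7 to 12.2 CPM and Siglec1 from 10.6 to 2.33 CPM (group means), neither called. The paper reports less Axl RNA and protein in AML KO than in AML WT BM, and proposes Axl as a target of Gab2 through Stat5. Whether the lower Axl here goes with macrophage content or with Gab2 was not tested. The part of cell composition in these results was not tested either.

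The other iron genes named for their role were not called. Hmox1, which releases iron from heme, had a log2 fold change of 0.18 (adjusted p = 0.454), and Fbxl5, which marks Ireb2 for degradation when iron is plentiful, had 0.10 (adjusted p = 0.714). Slc25a28 (mitoferrin 2), the broadly expressed relative of Slc25a37, was at 28.9, 35.4 and 39.6 CPM in AML WT, 41.7 and 45.1 CPM in AML HET and 59.0, 33.5 and 46.7 CPM in AML KO mice (log2 fold change 0.42, adjusted p = 0.308). Of 4 genes on the endosomal route of transferrin iron and 6 of iron-sulfur cluster assembly, none was called. Among 8 genes listed as bearing an IRE, 2 were called higher, Slc40a1 and Alas2. Alas2 was at 5.5, 4.4 and 4.1 CPM in AML WT, 10.5 and 36.0 CPM in AML HET and 58.0, 28.9 and 24.8 CPM in AML KO mice, a log2 fold change of 2.99 (SE 0.47, adjusted p = 0.0149) that lost its call without AML WT mouse 1 (adjusted p = 0.0580) or AML WT mouse 2 (adjusted p = 0.0860).

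Ratios between genes of the same library do not depend on scaling between libraries, and 4 were compared between AML WT and AML KO mice with an exact two-sided permutation test, in which 3 mice against 3 cannot go below p = 0.1. Slc25a37 to Slc25a28 had log2 ratios of 0.85, 0.74 and 0.95 in AML WT, 1.12 and 1.49 in AML HET and 1.74, 1.16 and 1.48 in AML KO mice. All AML HET and AML KO mice were above all AML WT mice, and the difference of 0.61 between AML KO and AML WT reached the smallest possible exact permutation p = 0.1 (0.4 after Benjamini-Hochberg adjustment over the 4 ratios). Tfrc to the sum of both ferritins, a ratio of uptake to storage mRNA, had log2 values of −4.15, −4.73 and −4.11 in AML WT, −3.56 and −4.00 in AML HET and −3.40, −4.93 and −3.78 in AML KO mice. The AML KO mice lay on both sides of the AML WT mice, with a difference of 0.29 (exact permutation p = 0.6, adjusted 0.8) that was −0.03 without AML KO mouse 1. Fth1 to Ftl1 differed by −0.13 (exact permutation p = 0.3, adjusted 0.6) and Aco1 to Ireb2 by 0.01 (exact permutation p = 1, adjusted 1), with overlapping groups in both.

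**Figure D3:**
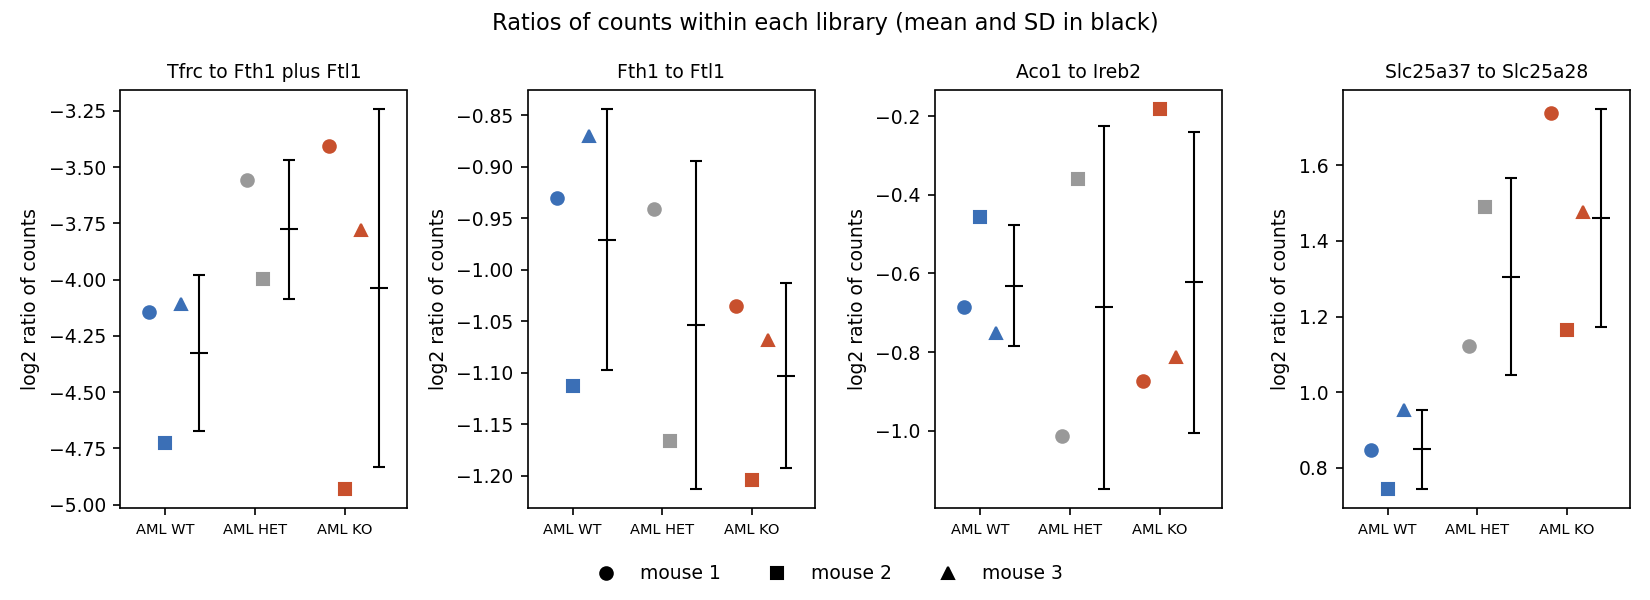
Log2 ratio of counts (y axis) of 4 gene pairs by genotype (3 AML WT, 2 AML HET, 3 AML KO); symbols are single mice and black bars the mean ± SD. Only for Slc25a37 to Slc25a28 do all AML HET and AML KO mice (1.12 to 1.74) sit above all AML WT mice (0.74 to 0.95).

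Erythroid marker level differed between mice along with Tfrc and Slc25a37, but by far more. The 25 erythroid markers, globins included, summed to 478, 597 and 617 CPM in AML WT, 940 and 2662 CPM in AML HET and 6047, 1975 and 2572 CPM in AML KO mice. AML KO mouse 1, the highest in this sum, was also the highest in Tfrc and Slc25a37. AML KO mouse 2 stood above every AML WT mouse in the erythroid sum but was the lowest of 8 in Tfrc and the 6th in Slc25a37. Slc25a37 equalled 10.9%, 9.93% and 12.4% of the erythroid sum in AML WT, 9.63% and 4.76% in AML HET and 3.26%, 3.80% and 5.05% in AML KO mice, and Tfrc 12.8% to 20.0% in AML WT, 4.62% and 14.5% in AML HET and 3.13% to 5.02% in AML KO mice. Alas2 kept between 0.670% and 1.47% of the sum in all 8 mice. The makeup of the sum differed between groups. Nfe2, not called, was its largest marker in AML WT mice (208.7, 265.7 and 231.6 CPM; 395.1, 337.4 and 294.0 CPM in AML KO). The globin Hbb-bs was the largest in AML KO mice (2289.2, 627.1 and 829.5 CPM, against 103.2, 112.9 and 141.1 CPM in AML WT). These percentages are therefore not levels per erythroid cell. No erythroid marker was at 0 in any mouse. By flow cytometry of BM, the paper reports a smaller share of megakaryocyte-erythroid progenitors in AML WT than in control mice. Among AML mice it reports a larger share with Gab2 deficiency. The part of erythroid cells in the levels of Tfrc and Slc25a37 was not tested.

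**Figure D4:**
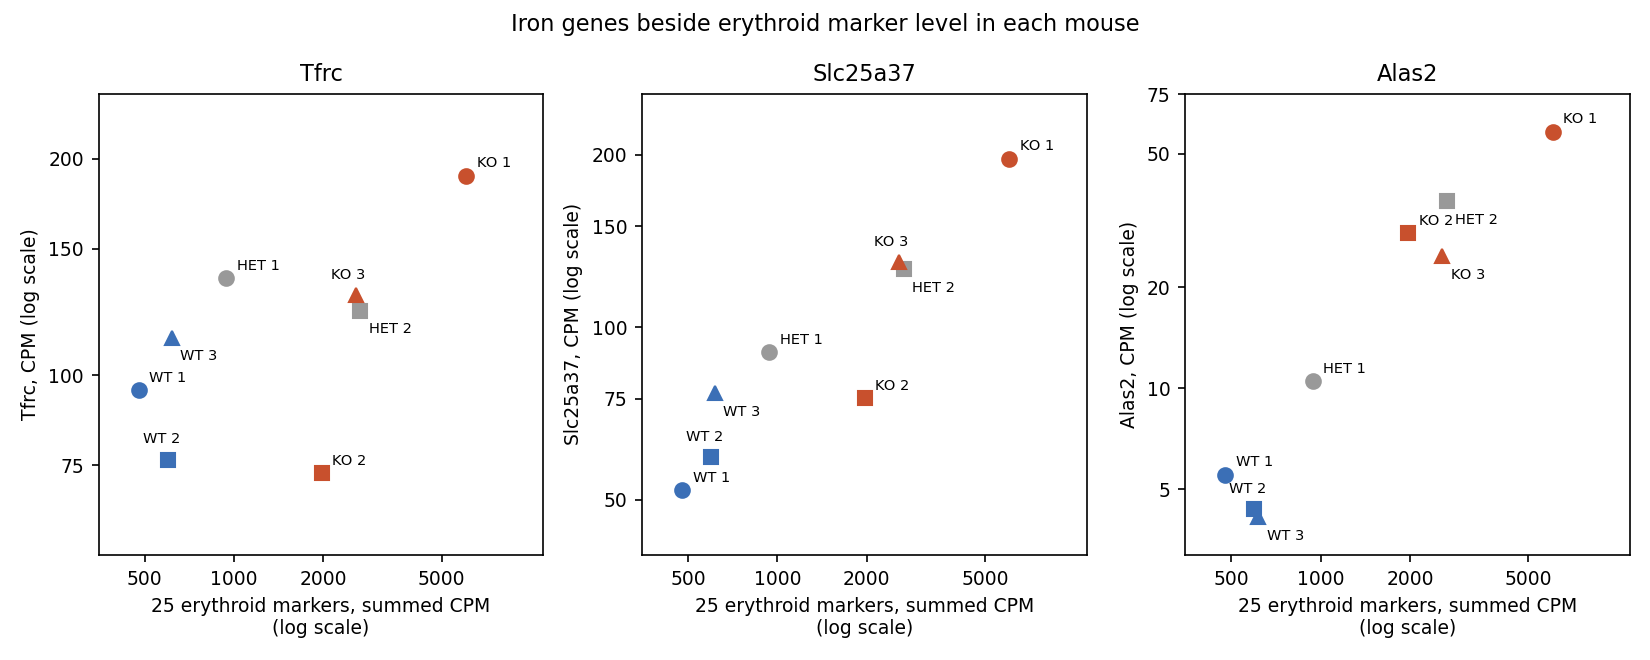
Level of Tfrc, Slc25a37 and Alas2 in each mouse (CPM, log axis) against the summed level of 25 erythroid markers (CPM, log axis); blue AML WT, gray AML HET, orange AML KO, with circles, squares and triangles for mice 1, 2 and 3. Over all 8 mice the erythroid sum spans 478 to 6047 CPM while Tfrc spans 73.2 to 189.5 CPM, and AML KO mouse 2 lies low for Tfrc and Slc25a37 but not for Alas2.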

How the data were processed

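The authors sequenced RNA of whole BM from 8 mice on an Illumina HiSeq and deposited raw counts per gene without normalization. The submitters' processing notes name Trimmomatic 0.36, STAR 2.5.2b and the mm10 build. The counting tool, annotation and strand setting are not given in the sources used here. Of 13305 Ensembl identifiers, 13266 were found in GENCODE M21 (GRCm38). The lowest total of a listed gene over the 8 mice is 106 counts. Counts were fitted in R 4.3.3 with edgeR 4.0.16 (TMM, filterByExpr, which removed 0 genes, and the robust quasi-likelihood test) to all 8 mice with no term but genotype, with Benjamini-Hochberg adjustment across the whole table and a threshold of 0.05. SEs were derived from the F statistic. P-values of this fit set a difference between genotypes against the spread between mice, estimated over all 8 mice and moderated across genes. Alternatives were DESeq2 1.42.0, RLE and upper-quartile scaling, no filter, at least 1 CPM in 2 mice, the replicate number as a block, AML WT and AML KO mice alone, and each mouse left out. Ratios were tested with scipy 1.17.1, and figures were drawn with matplotlib 3.10.9. The code was tested on simulated data. The members, marker lists and iron lists were chosen with earlier results of these data known. Named were the members, the called genes of the wider iron list, Slc25a28, Slc40a1, Hmox1, Lcn2, Tfr2, Fbxl5, up to 4 markers a list and Gab2. Alas2, Flvcr1, Glrx5 and markers beyond 4 were named after their values were seen. Of the 45 genes of the wider list, 11 are not listed in the table.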

Additional observations from a re-analysis of the deposited data

How the results depend on the processing

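Between AML KO and AML WT, edgeR called 278 genes, DESeq2 730, edgeR with AML WT and AML KO mice alone 216, and fits that left out 1 mouse 40 (without AML WT mouse 2) to 370 (without AML KO mouse 2), with 167, 137 and 123 without AML WT mouse 1, AML KO mouse 1 and AML KO mouse 3. For AML HET against AML WT, DESeq2 called 59 genes, and leaving out 1 mouse gave 1 (AML HET mouse 2) to 5 (AML KO mouse 2). For AML KO against AML HET, DESeq2 called 77, and leaving out 1 mouse gave 0 to 4 (AML KO mouse 2). Members called in AML KO against AML WT numbered 1 in DESeq2 and 0 to 1 without 1 mouse, and genes of the wider iron list 4 in DESeq2 and 0 (without AML WT mouse 2) to 3 without 1 mouse. Deviations of same-numbered mice from their group means correlated at −0.448 to 0.27. With so few mice a group and no differently numbered pairs beside them, these values cannot tell whether the numbers mark a shared batch or litter. With the replicate number as a block, 19 genes were called between AML KO and AML WT, 0 between AML HET and AML WT and 0 of the wider iron list. 

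Of 171 fold changes of the 9 genes under alternatives other than leaving out a mouse, 162 kept their direction and side of the threshold, 1 became a call (Slc25a37 in DESeq2) and 8 changed sign. Under upper-quartile scaling these were Steap3 (0.019) and Fth1 (0.020) in AML KO against AML WT and Ireb2 (0.0087) in AML HET against AML WT. With the block they were Steap3 (−0.036) and Ireb2 (0.0083) in AML HET against AML WT and Tfrc (−0.16), Steap3 (0.023) and Ncoa4 (0.10) in AML KO against AML HET. Of 216 fold changes that left out 1 mouse, 27 changed sign. In AML KO against AML WT the values that did so ranged from −0.12 to 0.078 for Steap3, −0.083 to 0.14 for Slc11a2 and −0.073 to 0.067 for Fth1, and Fbxl5 from −0.0045 to 0.17. In AML HET against AML WT they ranged from −0.13 to 0.20 for Steap3, −0.24 to 0.12 for Ftl1, −0.53 to 0.012 for Ncoa4, −0.17 to 0.042 for Aco1 and −0.28 to 0.21 for Ireb2. In AML KO against AML HET they ranged from −0.35 to 0.29 for Tfrc, −0.20 to 0.13 for Steap3, −0.18 to 0.032 for Slc11a2, −0.076 to 0.58 for Slc25a37 and −0.30 to 0.21 for Ncoa4. The log2 ratio of Tfrc to the ferritins differed by −0.030 to 0.73 and that of Aco1 to Ireb2 by −0.21 to 0.13. The cause was not tested.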

Other observations

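Glrx5, which carries iron-sulfur clusters in mitochondria, showed the same order of mice as Slc25a37 at its extremes. Its level was 32.9, 53.7 and 67.6 CPM in AML WT, 62.1 and 83.9 CPM in AML HET and 174.1, 60.6 and 88.7 CPM in AML KO mice, with AML KO mouse 1 highest and AML WT mouse 1 lowest. The groups overlapped, and the log2 fold change in AML KO against AML WT was 1.07 (SE 0.38, adjusted p = 0.218), or 0.54 without AML KO mouse 1. Flvcr1, which exports heme, went the other way, with 34.0 ± 3.65 CPM (SD, n = 3) in AML WT, 28.5 ± 6.72 CPM (SD, n = 2) in AML HET and 23.8 ± 2.19 CPM (SD, n = 3) in AML KO BM (log2 fold change −0.51, adjusted p = 0.174).

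Over the 8 mice, the genes with the profile nearest to Tfrc were Wdr77, Mss51 and Ap4b1, which differed from it by a root mean square of 0.119 in centred log2 CPM, and those nearest to Slc25a37 were Afp, Pnp2 and Gm9385, at 0.168 to 0.184. The SD of the profile itself was 0.426 for Tfrc and 0.602 for Slc25a37. Several of these genes were low: Mss51 at 1.89 to 4.51, Ap4b1 at 1.67 to 4.77, Afp at 1.16 to 5.13 and Gm9385 at 1.52 to 5.69 CPM. The search was limited to Tfrc and Slc25a37 after their values were seen, and it is a description of 8 mice that share a sequencing series.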
